A study of Homo sapiens with 120 samples.

Results

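The metallothionein genes MT2A, MT1X, MT1E, MT1F, MT1G, MT1L and MT1M were followed through 120 RNA sequencing libraries of CFPAC-1, a cell line established from human pancreatic ductal adenocarcinoma. They were chosen by row name, and each name stands on 1 row of the 30504 in the deposited expression table. The table gives FPKM, which scales fragments to transcript length and to the library's total, so levels can be set side by side between genes of different length. Levels in different libraries are less comparable. Summed FPKM ran from 339644 to 817990 over the libraries, and rows at 1 FPKM or more from 7 to 11752. Without counts no sequencing depth or counting interval can be given, and an exact 0 is reported here as listed at 0.

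The study compared ways of isolating single cells. Untreated cells were taken as bulk RNA of about 10000 cells (4 libraries), as single cells or pairs on microrafts, small releasable culture elements of an array (10 libraries of 1 cell, 10 of 2 cells and 10 of empty rafts), and as captures on the Fluidigm C1, a microfluidic instrument (5 libraries of 1 cell, 5 of 2 cells and 5 empty). Water in place of cells gave 7 libraries. A further 64 rafts came from 4 arms (no treatment, saline, and gemcitabine at 2 nM or at 5 nM), each with 8 rafts labelled proliferative and 8 labelled nonproliferative. Gemcitabine is a cytidine analog that stops DNA synthesis. All groups are the same line, and the labels name no genetic change and give no cell number for the rafts of the arms. The labels name no culture of origin, so p-values in the arms measure the spread between rafts, which may be technical.

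Metallothioneins are small cysteine-rich proteins that bind zinc, copper and cadmium and buffer the free zinc of the cell. Their transcription is switched on by MTF1, a zinc-sensing transcription factor that binds metal response elements in their promoters, and glucocorticoids and oxidative stress also induce several of them. MT2A is the widely expressed member, the MT1 genes are close relatives arranged beside it on chromosome 16, and MT1L is a gene copy annotated as a processed transcript in GENCODE release 29.

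RefSeq promoter sequences were at hand for 2 of the 7 members, MT2A and MT1X, and they are shown because they carry the elements by which metals are known to act on these genes. Each is the 250 bases before the transcription start, 5′ to 3′ on the plus strand of GRCh38.p14, a later build than the hg19 of the expression values. MT2A covers chr16:56608334-56608583 and MT1X covers chr16:56682220-56682469. Capitals mark the core of the metal response element, TGCACNC or TGCGCNC, and a match on the minus strand stands as its reverse complement.
MT2A promoter: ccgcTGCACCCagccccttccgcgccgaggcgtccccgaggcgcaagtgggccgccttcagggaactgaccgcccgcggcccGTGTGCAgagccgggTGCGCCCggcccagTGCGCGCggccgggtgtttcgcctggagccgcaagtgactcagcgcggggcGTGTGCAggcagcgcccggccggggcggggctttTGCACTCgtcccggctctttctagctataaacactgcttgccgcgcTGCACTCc
MT1X promoter: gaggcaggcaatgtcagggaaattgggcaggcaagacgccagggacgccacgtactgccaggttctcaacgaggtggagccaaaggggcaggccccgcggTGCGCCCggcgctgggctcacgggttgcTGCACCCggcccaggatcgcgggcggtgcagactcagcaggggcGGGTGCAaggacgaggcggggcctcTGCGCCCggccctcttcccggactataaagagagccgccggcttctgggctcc
The MT2A stretch held 7 cores on either strand and the MT1X stretch 4, and no match overlapped another. Of 35116 RefSeq promoters cut to the same length, 24.8% held at least 1 core, 0.37% at least 4 and 0.0313% at least 7. Both members also held 1 match of a TATA box (TATAAA, in 10.7% of promoters), 1 of the antioxidant element (TGACNNNGC, in 10.9%) and 2 of a GC box (GGGCGG, in 42.6%). A match describes the letters only, and binding was not measured.

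**Figure D1:**
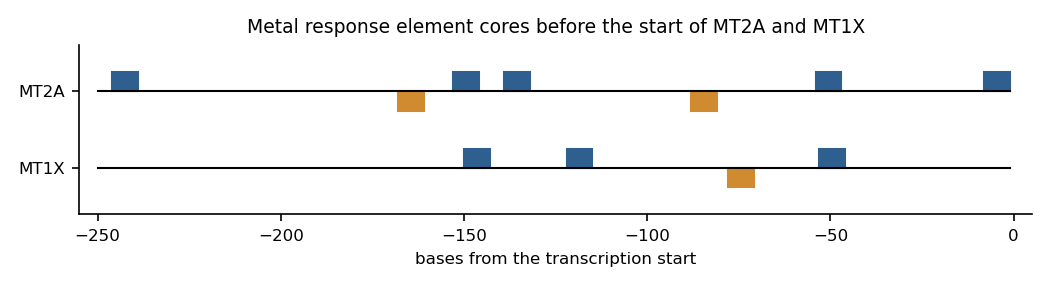
Positions of metal response element cores in the 250 bases before the transcription start of MT2A and MT1X (x axis, bases from the start); boxes above the line are matches on the plus strand, boxes below it on the minus strand. MT2A has 7 cores and MT1X has 4, all on the plus strand except 2 in MT2A and 1 in MT1X.

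Because the members are near copies, reads can fall on more than 1 of them. In the GENCODE transcripts, between 0 and 8.81% of the stretches of 50 bases of a member were found in another member, highest for MT1G (8.81%) and MT1E (5.29%) and lowest for MT1X and MT1L (0 for both). For stretches of 25 bases the shares ran from 7.0% (MT1X) to 19.57% (MT1E), with 13.95% for MT1L. The read length is not given in the sources used here. Levels of the single MT1 genes are therefore less certain than that of the family as a whole.

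Libraries differed widely in quality. Genes detected, meaning rows with an FPKM of 1 or more, ran from 4804 to 8461 in 1-cell rafts and from 8560 to 10474 in 1-cell C1 captures, and from 7 to 10424 in the arms. The Spearman correlation of each library with mean bulk across 10767 rows was 0.592 to 0.729 in 1-cell rafts and 0.457 to 0.538 in 1-cell C1 captures. In the arms it reached 0.25 in only 34 of 64 libraries, 22 proliferative and 12 nonproliferative. RPL13A, a ribosomal protein gene that every cell uses, was listed at 0 in 21 of the other 30 arm libraries and in none of the 34. The epithelial and ductal marker list had 7 of 8 genes in the table, all 7 with a median of 1 or more in bulk, 1-cell rafts and 1-cell C1 captures. In bulk, 5 of 6 blood cell, 3 of 4 endothelial and 4 of 5 fibroblast markers were at 0 in every library. The keratinocyte list went the other way, with 2 of 5 markers at a median of 1 or more in bulk. These markers summed to between 211 and 320 FPKM there, and 2 of the 5 were at 0 in every bulk library. Summed blood cell markers reached 16133 FPKM in an empty raft.

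MT2A was the leading metallothionein of the line. The 4 bulk libraries listed it at 1042, 519, 436 and 595 FPKM. It ranked between 144 and 309 among all rows there and made up 58.5% to 70.7% of the summed FPKM of the 7 members. MT1E followed at 64.7 to 184 FPKM, MT1L at 89.9 to 142 and MT1X at 22.8 to 208, and the ranges of these MT1 genes overlapped each other while all lay under every MT2A value. MT1F reached 37.9 at most and was listed at 0 in 1 bulk library. MT1M was seen in 1 bulk library, at 5.94 FPKM, and MT1G in none. Other metallothioneins had 8 rows, and of these MT1DP was listed above 0 in 3 bulk libraries and MT1A in 2, with no bulk value over 16.5 FPKM.

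Single cells kept this order at the top but not below it. MT2A was the highest member in all 30 libraries of 1 or 2 isolated cells. In 1-cell rafts it ran from 30.7 FPKM through a median of 438 to 2553. In 1-cell C1 captures it stood at 753, 3035, 969, 212 and 1242 FPKM. Both ranges enclose the bulk values, so the isolated cells spread above and below the bulk level. MT1E was found in 7 of 10 1-cell rafts and all 5 1-cell C1 captures, MT1X in 8 and 5, MT1F in 3 and 3, MT1L in 2 and 4, MT1M in 1 and 2, and MT1G in 0 and 1.

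**Figure D2:**
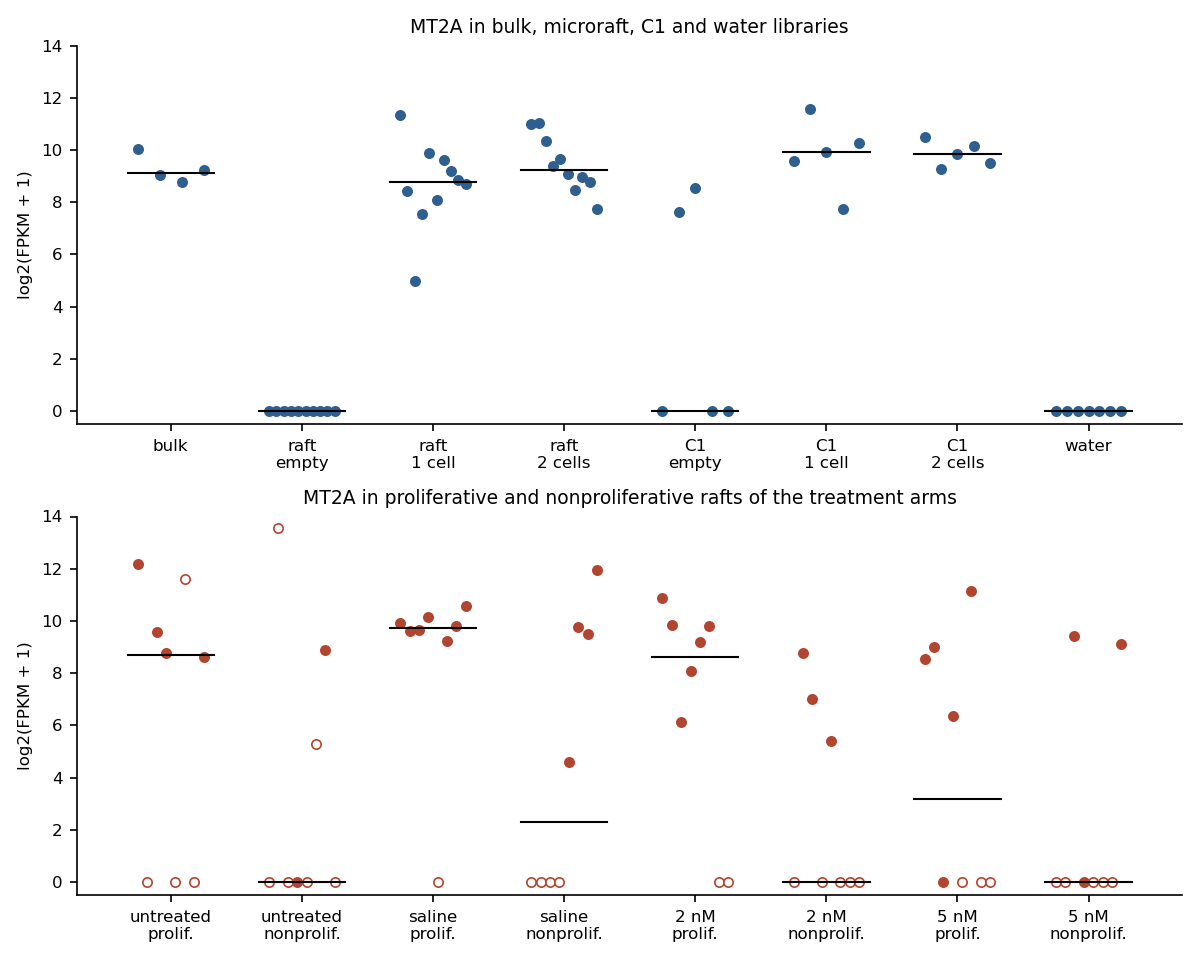
MT2A as log2(FPKM + 1) in every library (y axis) by group (x axis); each point is a library and each bar the group median, and open points are arm libraries whose correlation with bulk is under 0.25. All libraries with isolated cells lie at 30.7 FPKM or higher, empty rafts and water lie at 0, and 27 of the 30 open points lie at 0.

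The controls without cells set the background. All 7 members were listed at 0 in all 10 empty rafts and all 7 water libraries. In the 5 empty C1 captures MT2A stood at 0, 199, 367, 0 and 0 FPKM, and the first of them listed MT1E at 32.2 and MT1L at 13.1. The highest MT2A value of an empty C1 capture thus lay above 1 of the 5 single-cell captures and within the range of the rafts. These empty captures had 865 to 7953 genes detected, and their summed epithelial markers reached 9151 FPKM against at most 6390 in 1-cell captures. On the log2(FPKM + 1) scale, 6 of 7 members had a higher mean in 1-cell than in empty rafts, and 7 of 7 in 1-cell than in empty C1 captures. Among rows at 1 FPKM or more in at least 5 libraries of the groups compared, the counts were 3 of 3 members against 92.2% of 7329 rows, and 4 of 4 against 86.7% of 6821. Every such share of rows for isolation groups has this filter, and beyond these comparisons with empty captures MT1G and MT1M are the 2 members that fail it. With all members at 0 in empty rafts, a member could pass only through the 1-cell rafts, which fixed the raft count. In C1, MT2A, MT1X and MT1E were in all 5 1-cell captures and MT1L in 4, so they passed mainly through that group. Neither count is read as a result about the members. MT2A alone of the members did not overlap between 1-cell rafts and empty rafts, where it was listed at 0. That only restates that MT2A was above 0 in all 10 1-cell rafts, 1 of 1914 genes that were. Between 1-cell and empty C1 captures MT2A values overlapped, whereas those of MT1X and MT1E did not. The share of all rows without overlap was not counted.

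The spread of MT2A between 1-cell rafts was wide, and most of it lay in 1 of 2 library sets. Its SD on the log2(FPKM + 1) scale was 1.66 in 10 1-cell rafts, and 94.4% of the 1914 genes above 0 in all of them had a lower SD (median 0.93). In 2-cell rafts the SD was 1.08, against a median of 0.73 over 4297 genes. It was 1.39 in 1-cell and 0.48 in 2-cell C1 captures, against medians of 1.00 and 0.96, and 0.54 in bulk against 0.44. In 2-cell C1 captures 12.5% of genes had a lower SD than MT2A. Within the library sets of the rafts the picture changed. The SD of MT2A in 1-cell rafts was 2.40 in set 1 (median gene 0.95) and 0.57 in set 2 (median gene 0.87). In 2-cell rafts it was 0.75 in set 1 (0.69) and 0.54 in set 2 (0.71), so in set 2 MT2A varied less than the median gene. Depth is unknown and its part in this spread was not tested.

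The raft libraries came in 2 sets that the labels tell apart, and among 1-cell rafts set 1 was the wider. The 1-cell rafts of set 1 listed MT2A at 2553, 343, 30.7, 184 and 932 FPKM. Those of set 2 listed it at 273, 793, 583, 461 and 415, a narrower range inside that of set 1. For 2-cell rafts the sets did not overlap: 2041, 2084, 1289, 661 and 814 in set 1, against 535, 349, 496, 436 and 209.5 in set 2. How the sets differed in handling is not given in the sources used here.

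In 1-cell libraries the mean of every member was lower on rafts than on C1, and the values of the platforms overlapped for all 7. For MT1G this rested on 1 C1 capture, at 19.2 FPKM. No test was made between isolation groups, whose labels name no separate culture. The arms name none either, so the p-values given for them take rafts as replicates. None of the 7 members had a higher mean in 1-cell rafts than in 1-cell C1 captures, while 44.6% of 10040 rows did (median difference −0.26). MT2A averaged 8.66 ± 1.66 (SD, n = 10) on rafts and 9.81 ± 1.39 (SD, n = 5) on C1 on the log2(FPKM + 1) scale, a difference of −1.15. MT1L differed most, by −3.77, then MT1E by −2.22 and MT1F by −1.58. MT1X differed by −0.43, less than its SD in either group, and MT2A likewise, whereas the MT1L difference exceeded both of its SDs (2.56 on rafts and 3.32 on C1). The count became 1 with medians, with set 2 alone, or without any of 1-cell raft replicates 2 and 6 and 1-cell C1 replicates 2 and 3. More genes were detected on C1, and the part of that in these differences was not tested.

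MT1L had the largest mean difference of the members between 1-cell rafts and either 2-cell rafts or bulk. It was listed at 0 in 8 of 10 1-cell rafts, and the other 2 stood at 129 and 28.3 FPKM. In 2-cell rafts 8 of 10 had it, from 8.58 to 141 FPKM, with a median of 43.5 over all 10. In bulk it stood at 98.4, 89.9, 95.2 and 142 FPKM. Raft means differed by 3.33 (2 cells minus 1 cell, log2(FPKM + 1)), by 4.83 in set 1 and 1.83 in set 2, and 1-cell rafts minus bulk by −5.53. The latter was −8.18 with a pseudocount of 0.1 and −2.95 with one of 10. In C1 captures MT1L was in 4 of 5 single cells, at 10.1, 291, 48.8 and 178 FPKM, and in all 5 pairs, from 6.60 to 104.

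**Figure D3:**
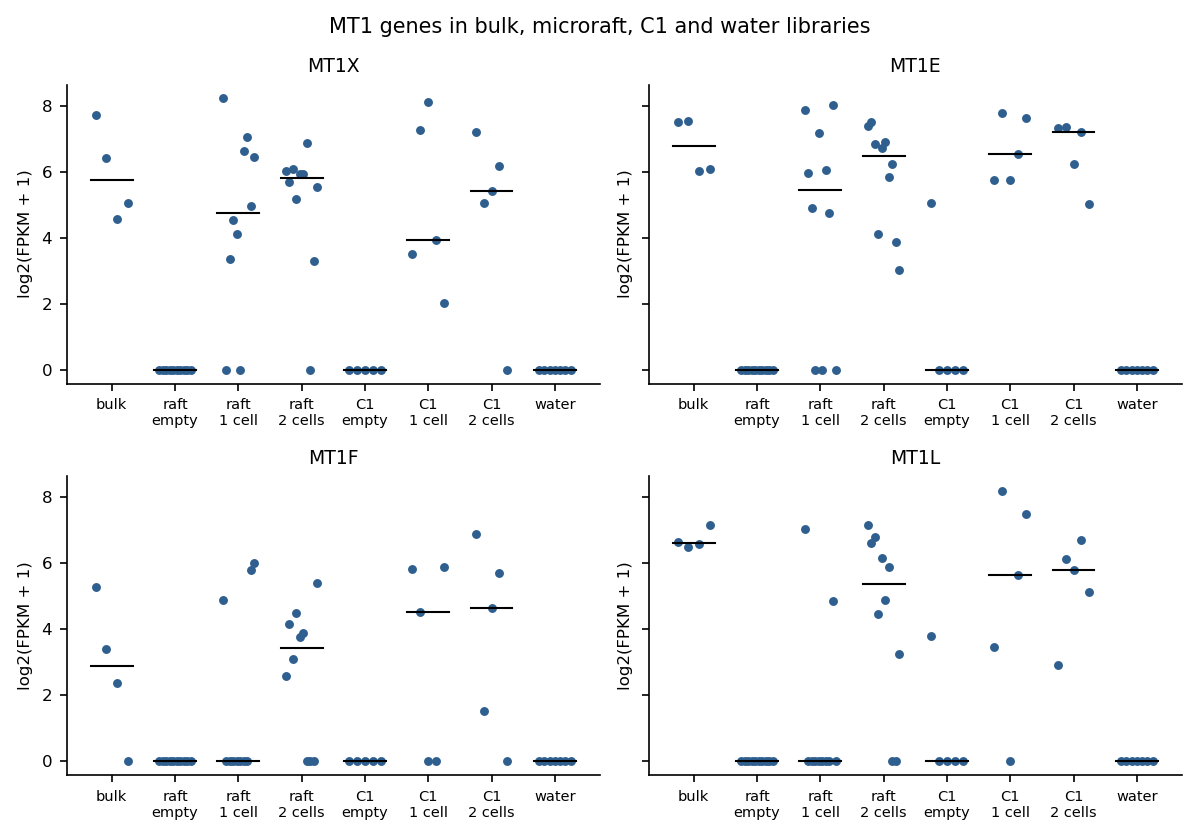
MT1X, MT1E, MT1F and MT1L as log2(FPKM + 1) (y axis) in bulk, raft, C1 and water libraries (x axis); each point is a library and each bar the group median. MT1L lies at 0 in 8 of 10 1-cell rafts and above 0 in 8 of 10 2-cell rafts and in all 4 bulk libraries.

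The other members showed smaller differences between 1 and 2 cells on rafts. Of the 7 members 5 had a higher mean in 2-cell rafts, where 75.1% of 10529 rows did. Beside MT1L these were MT1E (1.37 higher on the log2 scale), MT1F (1.07), MT2A (0.78) and MT1X (0.52), each less than the SD of 1-cell rafts. In set 2 only 2 members remained higher, and MT2A and MT1X differed there by −0.30 and −0.69. In C1 captures 3 of 7 members had a higher mean with 2 cells (57.4% of 9912 rows), and MT2A differed by 0.03. That count went to 1 without 2-cell C1 replicate 1 or 1-cell C1 replicate 4, and to 5 without 2-cell C1 replicate 5 or 1-cell C1 replicates 2 or 5. With 2 cells, 1 of 7 members was higher on rafts than on C1 (50.9% of 11349 rows), MT1X by 0.29. It became 3 with set 1, 0 with set 2 and 0 without 2-cell C1 replicate 5.

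Against bulk, 0 of 7 members had a higher mean in 1-cell rafts (27.8% of 9552 rows did) and 4 of 7 in 1-cell C1 captures. Of the 5 members that pass the row filter 2 were higher in those captures, MT2A and MT1F, where 43.2% of 9540 rows were. MT2A differed from bulk by −0.60 on rafts and by 0.55 on C1, each less than the SD of the single cells. MT1E differed by −2.31 on rafts and by −0.10 on C1, with 3 rafts listing it at 0. The raft count was 1 without bulk replicate 4, 1 with set 1 and 2 after quantile normalization. The C1 count was 2 with medians.

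The correlation with MT2A between rafts differed from member to member. After the mean of each set and cell number was subtracted, Spearman rho with MT2A over 20 rafts was 0.79 for MT1E, 0.26 for MT1X, 0.26 for MT1L and −0.07 for MT1F. MT1X went with MT1L more than with MT2A (rho 0.61). MT1F and MT1L were at 1 FPKM or more in only 10 of the 20 rafts each, and MT1X and MT1E in 17. Values at 0 therefore enter these correlations, and their part in the low ones was not tested. The 5 other genes most like MT2A among 7852 were NME2 (0.86), SLC25A5 (0.82), NHP2 (0.81), FASTKD3 (0.79) and TMEM18 (0.77), over which the percentiles 5 and 95 were −0.43 and 0.45. NME2 is a nucleoside diphosphate kinase, SLC25A5 the mitochondrial ADP/ATP carrier and NHP2 a protein of box H/ACA snoRNPs. All points share library depth, which is unknown, and these values are a description only.

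Genes known to act on the family, or induced beside it, were also read in these groups. MTF1 was at 1 FPKM or more in 3 of 4 bulk libraries, 4 of 10 1-cell rafts and 3 of 5 1-cell C1 captures, with group medians of 1.08, 0.39 and 1.31 FPKM. SLC30A1, a zinc exporter and another MTF1 target, was in 5 of 10 1-cell rafts, 10 of 10 2-cell rafts and 2 of 5 1-cell C1 captures. TSC22D3, a glucocorticoid-induced gene, was in 3 of 10 1-cell rafts, 10 of 10 2-cell rafts and all 5 1-cell C1 captures (49.4 to 288 FPKM). Like MT1L, TSC22D3 was listed at 0 in most 1-cell rafts and above 0 in most 2-cell rafts. FKBP5, a further glucocorticoid target, was not analysed here. Over the glucocorticoid list, 2 of 5 measured genes were higher in 1-cell rafts than in 1-cell C1 captures, with a median difference of −2.14 against −0.26 over all rows. In the zinc list of sensors and transporters 9 of 16 were higher on rafts, with a median of 0.57.

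In the arms, libraries more like bulk more often held metallothionein transcripts. MT2A was at 1 FPKM or more in 31 of the 34 libraries with a correlation of 0.25 or more and in 3 of the other 30. MT1L was in 27 against 0, MT1X in 26 against 1, MT1E in 26 against 0 and MT1F in 13 against 0. MT1M was in 5 against 1, and MT1G in 1 against 0, a saline proliferative raft at 8.49 FPKM. Outside the 34, MT2A stood at 12097 FPKM in untreated nonproliferative replicate 2, with 176 genes detected, at 3116 in untreated proliferative replicate 6, with 395, and at 38.2 in untreated nonproliferative replicate 6, and was under 1 in the other 27. The first is the highest level of any member in any library, and there MT2A ranked 2 among all rows and no other member was above 0. Within the 34 the level of MT2A had a median of 590.4 FPKM and a highest value of 4594, close to the isolated cells (median 694 over 30 libraries).

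**Figure D4:**
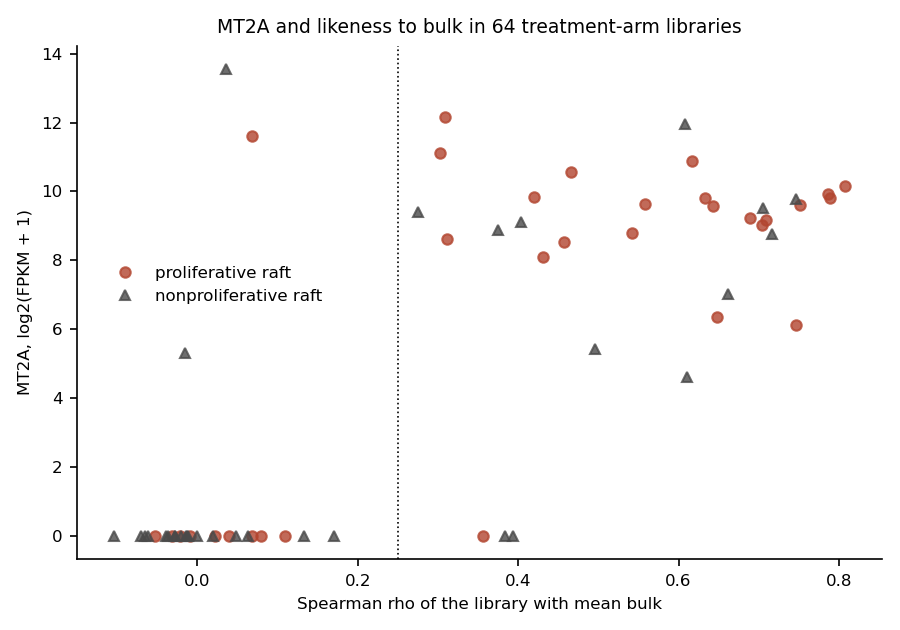
MT2A as log2(FPKM + 1) (y axis) against the Spearman correlation of each of 64 arm libraries with mean bulk (x axis); circles are proliferative and triangles nonproliferative rafts, and the dotted line marks 0.25. To the right of the line 31 of 34 libraries have MT2A, and to the left 3 of 30.

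Proliferative rafts carried more transcript of 4 of the 7 members than nonproliferative rafts. MT2A was listed above 0 in 5, 7, 6 and 4 of 8 proliferative rafts in the untreated, saline, 2 nM and 5 nM arms, and in 3, 4, 3 and 2 of 8 nonproliferative rafts. Group medians were 416, 854, 426 and 40.5 FPKM in proliferative rafts, and 0, 11.7, 0 and 0 in nonproliferative rafts. Proliferative and nonproliferative values overlapped in every arm, since each group held libraries at 0. The saline proliferative rafts were the most even, with 7 of 8 between 601 and 1516 FPKM.

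The classes were compared with limma on log2(FPKM + 1), in 52 libraries with at least 1000 genes detected. The 11560 rows at 1 FPKM or more in at least 8 of them were tested, with Benjamini-Hochberg adjustment and a threshold of 0.05. Of the 7 members 5 passed this filter, MT2A, MT1X, MT1E, MT1F and MT1L, and MT1G and MT1M did not. Averaged over the 4 arms, 4 of the 5 were higher in proliferative rafts, where 12.1% of all rows were called (11.4% higher and 0.753% lower, with a median difference of 0.58 over all rows). MT2A was higher by 4.19 ± 1.09 (SE, adjusted p = 0.0084) and was present in 21 of 26 proliferative and 11 of 26 nonproliferative libraries of the fit. MT1X was higher by 3.29 ± 0.86 (SE, adjusted p = 0.00912), in 19 against 8. MT1L was higher by 2.99 ± 0.81 (SE, adjusted p = 0.0115), also in 19 against 8. MT1E was higher by 2.42 ± 0.77 (SE, adjusted p = 0.0279), in 17 against 9. For MT1F the difference of 0.73 ± 0.58 did not pass (SE, adjusted p = 0.383).

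For this difference averaged over the arms, no member was called in fits restricted to, or adjusted for, library quality. With only the 34 libraries at a correlation of 0.25 or more, none of the 5 was called: MT2A differed by 2.24 (limma adjusted p = 0.257), MT1X by 2.69 (0.126), MT1L by 1.94 (0.392), MT1E by 1.12 (0.639) and MT1F by −0.08 (0.978). With genes detected as a covariate none was called either, and MT2A differed by 3.15 (0.0978). Most other rows lost their call too: calls over all rows fell from 1400 to 94 with the restriction and to 173 with the covariate. The restriction also leaves 34 of 52 libraries, and the parts of fewer libraries and of quality were not told apart. All 64 libraries gave 2 calls, MT1X and MT1L, and MT2A then stood at an adjusted p of 0.0503. Quantile normalization took the MT1E call (1.48, adjusted p = 0.0876), and it changed the split of all calls from 1313 higher and 87 lower to 483 and 250 while the median of all rows went from 0.58 to −0.02. The MT1E call was also lost without untreated proliferative replicate 4 (adjusted p = 0.0527) and without 5 nM proliferative replicate 2 (0.0515). Cell number per raft is unknown, so more cells and more transcript per cell cannot be told apart.

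Counts for other genes of metal handling are to be read against the 12.1% of all rows called. In the zinc list 1 of 16 tested genes was higher in proliferative rafts, SLC30A9, a zinc transporter (2.12, limma adjusted p = 0.0242). The median of the zinc list was 0.25, that of the copper list 1.38 and that of the iron list 0.58, against 0.58 over all rows. MTF1 differed by −0.16 (0.841) and SLC30A1 by −0.02 (0.982). In the copper list 1 of 8 was higher, SCO2, a cytochrome oxidase assembly factor (2.22, adjusted p = 0.0235), and in the iron list 1 of 6, FTH1, the ferritin heavy chain (3.02, adjusted p = 0.0489). TSC22D3 differed by 2.12 without passing (0.0683), and limma called 0 of 6 glucocorticoid genes, with 2 at a nominal p under 0.05. Against the same 12.1%, 2 of 7 epithelial markers were higher, KRT7 (3.91, adjusted p = 0.00708) and KRT8 (3.68, adjusted p = 0.0212), and 1 of 2 keratinocyte markers, DMKN (2.67, adjusted p = 0.0277). No blood cell, endothelial or fibroblast marker was measured in enough of these libraries.

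Within single arms no member was called by limma, and nearly no other gene was (0.0% of rows in the untreated, saline and 5 nM arms and 0.0173% in the 2 nM arm). At a nominal p under 0.05 there were 1, 3, 1 and 1 of the 5 members in the untreated, saline, 2 nM and 5 nM arms. The share of all rows at a nominal p under 0.05 was not counted, in these or any other contrasts. Nominal counts of members therefore have no background share. The MT2A differences were 4.99, 4.73, 4.67 and 2.36 in that order, and 3 of these 4 had a nominal p under 0.05. MT1X had its largest difference in the 5 nM arm, 5.41 ± 1.64 (SE, limma adjusted p = 0.262). There it was in 5 of 8 proliferative rafts, at 239.6, 94.4, 308, 123 and 284 FPKM, and in 0 of 8 nonproliferative rafts. With only libraries at a correlation of 0.25 or more that difference was called (7.57, limma adjusted p = 0.0131), from 5 proliferative and 3 nonproliferative rafts. Calls over all rows also rose in that fit, from 0 to 53 for this contrast, 45 of them higher. At the same restriction MT1X in the saline and 2 nM arms differed by −0.04 and −0.58. The differences between arms were tested directly as 3 interactions with saline, and 0 of 5 members was called in each (0.0% of rows), with 1 nominal p under 0.05, MT1F at 2 nM (−3.49).

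Rafts given 5 nM gemcitabine held less of 3 MT1 transcripts than rafts given saline. Averaged over both classes, MT1X fell by 3.84 ± 1.16 (SE, limma adjusted p = 0.0388), MT1E fell by 3.72 ± 1.03 (SE, adjusted p = 0.0261) and MT1L fell by 3.43 ± 1.10 (SE, adjusted p = 0.0486). Of all rows 4.64% were called (0.0779% higher and 4.56% lower), and the median of all rows was −0.76. MT2A differed by −3.66 ± 1.47 (SE, adjusted p = 0.103) and MT1F by −1.86 ± 0.79 (SE, adjusted p = 0.122). By library, MT1E was in 7 of 8 saline proliferative rafts, between 57.1 and 180.2 FPKM, and in 4 of 8 saline nonproliferative rafts, between 6.41 and 75.4. At 5 nM it was in 2 of 8 proliferative rafts, at 129 and 5.11 FPKM, and in 1 of 8 nonproliferative rafts, at 28.5. Values of the arms overlapped because saline also held libraries at 0. Median genes detected were 3065 and 2749 in proliferative and nonproliferative rafts at 5 nM, against 7166 and 6760.5 in saline, and median correlations with bulk were 0.33 and 0.12 against 0.66 and 0.30.

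Single libraries could end these calls. MT1E was lost without saline nonproliferative replicate 6 (limma adjusted p = 0.0638), saline nonproliferative replicate 7 (0.0623) or 5 nM proliferative replicate 5 (0.0503), and leaving out any of these left no member called. MT1X was lost without any of 12 libraries: saline proliferative replicates 1, 4 and 6, saline nonproliferative replicates 5, 6, 7 and 8, 5 nM proliferative replicates 5 and 8, and 5 nM nonproliferative replicates 1, 2 and 6 (adjusted p up to 0.0906). MT1L was lost without any of 25 of the 52 libraries, those 12 and saline proliferative replicates 2 and 7, 5 nM proliferative replicate 3, 5 nM nonproliferative replicates 3, 4 and 7, untreated nonproliferative replicates 5, 6 and 8, 2 nM proliferative replicate 3 and 2 nM nonproliferative replicates 4, 6 and 8 (adjusted p up to 0.10). MT1F was called without 5 nM proliferative replicate 2 (−2.28, adjusted p = 0.042). With genes detected as a covariate none was called, and quantile normalization left none and moved the split of all calls from 9 higher and 527 lower to 18 and 92, with a median of 0.01 over all rows. With only the 34 libraries at a correlation of 0.25 or more, MT1X (adjusted p = 0.0234) and MT1E (0.0328) remained called and MT1L did not (0.0572). Calls over all rows were 607 in that fit (41 higher and 566 lower, median −0.90), against 536 in the main fit and 9 with the covariate. In these libraries the mean of MT1X on the log2(FPKM + 1) scale was 7.57 at 5 nM and 7.82 in saline for proliferative rafts. For nonproliferative rafts it was 7.86 in 4 saline libraries and listed at 0 in all 3 at 5 nM, so the averaged difference of MT1X there came mainly from 3 libraries. Scaling all libraries to the same total also took the MT1L call (0.0544).

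**Figure D5:**
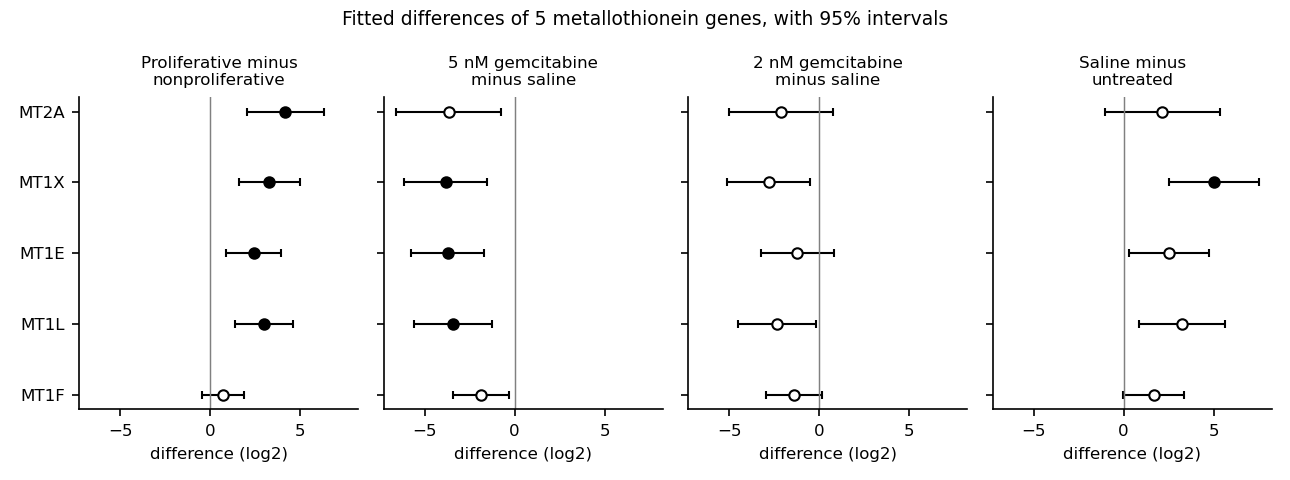
Fitted differences on the log2(FPKM + 1) scale (x axis) with 95% intervals for the 5 tested members (y axis) in 4 contrasts over 52 libraries; filled points have an adjusted p under 0.05. In proliferative rafts 4 members are higher, at 5 nM 3 MT1 genes are lower than in saline, at 2 nM none is called, and MT1X alone is higher in saline than in untreated rafts.

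Taken by class, no member was called between 5 nM and saline. In proliferative rafts, where 0.0692% of rows were called at an adjusted p under 0.05, MT1E differed by −5.33 ± 1.46 (SE, limma adjusted p = 0.0911). There 4 of 5 members had a nominal p under 0.05, a looser threshold with no share of all rows beside it. In nonproliferative rafts MT1X differed by −5.26 ± 1.64 (SE, adjusted p = 0.335; 0.0% of rows called), the only nominal p under 0.05. At 2 nM no member was called against saline (0.0% of rows), and 2 had a nominal p under 0.05, MT1X (−2.81, adjusted p = 0.725) and MT1L (−2.36, adjusted p = 0.734). By class none was called at 2 nM either (0.0% of rows), with MT1F in proliferative rafts (−3.15) the 1 nominal p under 0.05. MT1E was in 5 of 8 proliferative and 3 of 8 nonproliferative rafts at 2 nM, and its difference from saline was −1.21, with an interval from −3.25 to 0.83. The doses were also compared directly: no member was called for 5 nM minus 2 nM (0.0% of rows), and MT1E, at −2.51 (adjusted p = 0.501), was the 1 member with a nominal p under 0.05. In the copper list, COMMD1, a copper-handling trafficking factor (−3.54, adjusted p = 0.0345), and SCO2 (−3.55, adjusted p = 0.0197) fell at 5 nM, 2 of 8. In the zinc list SLC39A3, a zinc importer (−2.59, adjusted p = 0.0453), fell, 1 of 16. Of all rows 4.56% fell, a share near that of the zinc list. MTF1 differed by 0.72 (0.489) and SLC30A1 by 0.12 (0.906).

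Between saline and no treatment, MT1X was the 1 member called. It was higher in saline by 5.02 ± 1.27 (SE, limma adjusted p = 0.0391), where 0.381% of rows were called, all higher, and the median of all rows was 1.09. In untreated rafts MT1X was listed above 0 in 2 of 16, both proliferative, at 355 and 105 FPKM. In saline it was in 7 of 8 proliferative rafts, from 131 to 367 FPKM, and in 5 of 8 nonproliferative rafts, at 41.7, 73.2, 376, 114 and 892. The other members differed by 3.23 (MT1L, adjusted p = 0.0849), 2.53 (MT1E, 0.13), 2.16 (MT2A, 0.347) and 1.67 (MT1F). MT2A was in 8 of 16 untreated and 11 of 16 saline rafts.

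The MT1X call was lost without any of 16 libraries: untreated proliferative replicates 1, 5 and 8, untreated nonproliferative replicates 4 to 8, saline proliferative replicates 1, 2, 4 and 6, and saline nonproliferative replicates 5 to 8 (limma adjusted p up to 0.111). MT1L was called as well without saline nonproliferative replicate 1 (3.54, adjusted p = 0.0469) or 4 (0.0485). Restricted to the libraries with a correlation of 0.25 or more, MT1X kept its call (5.94, adjusted p = 0.00361), and with genes detected as a covariate it did not (2.84, adjusted p = 0.957). Calls over all rows went from 44 to 564 with the restriction and to 0 with the covariate. Untreated rafts had fewer genes detected (medians of 1510 and 1873 in proliferative and nonproliferative rafts) than saline rafts (7166 and 6760.5). The labels repeat their index pairs between arms, and arm and library pool cannot be told apart in any comparison of arms.

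The ratio of members also varied between libraries. MT1X over MT2A was 0.05 to 0.20 in bulk, 0.157 to 0.457 in the 7 saline proliferative rafts with MT2A, and 0 to 0.46 in the 5 such untreated proliferative rafts. In saline nonproliferative replicate 5 MT1X exceeded MT2A (73.2 against 23.5 FPKM), and in 5 nM proliferative replicate 4 it did so too (123 against 80.9). In 5 nM proliferative replicate 3 MT1X stood at 308 FPKM with MT2A listed at 0. In 2 nM nonproliferative replicate 5 MT1E (151 FPKM) and MT1F (63.3) exceeded MT2A (41.8). MT2A was the highest member in 66 of the 73 libraries that held any member, MT1X in 4, MT1E in 2 and MT1L in 1.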

How the data were processed

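Per the labels' protocols, 120 libraries of CFPAC-1 cells were amplified with SMARTer and tagmented with Nextera XT. Per the submitters' processing notes, RSEM and hg19 were used; versions are not given in the sources used here. The deposited values are FPKM, scaled by the authors for transcript length and library total, so the depth per library is unknown. Groups came from the labels. All 30504 rows were kept, and each member has 1 row.

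Values were compared as log2(FPKM + 1). The arms were fitted with limma 3.58.1 (limma-trend, 8 groups in a single fit, two-sided) in R 4.3.3, in 52 of 64 libraries with at least 1000 rows at an FPKM of 1 or more and 11560 rows at 1 or more in at least 8 libraries, with Benjamini-Hochberg adjustment at 0.05 over 16 contrasts taken separately. The fold scale of log2(FPKM + 1) understates changes of low genes. Isolation groups were described with no test. All-row shares there cover rows at 1 or more in at least 5 libraries of the groups compared, while counts of 7 members include members that fail this filter. Summaries and figures used matplotlib 3.10.9, scipy 1.17.1, numpy 2.4.6 and pandas 2.3.3 under Python 3.11.15. For proliferation averaged over the arms, data were simulated by shuffling each of 11560 genes separately over the 52 libraries and adding known shifts. There limma recovered 5, 18, 46 and 50 of 50 genes at log2 shifts of 1, 2, 4 and 6. It made 7 calls among 11360 unshifted genes. The shuffle removes the library quality that genes of a library share, so these numbers give no rate of false calls for the real fit.

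The members and gene lists were chosen with earlier results of these data known. All 7 members are named, with up to 4 called genes per list, MTF1, SLC30A1, TSC22D3 and FKBP5 (not analysed here) whatever their p, and the 5 genes most like MT2A over 20 rafts, metallothioneins aside, among those at 1 or more in at least 10. Single libraries, ratios and genes named by their count were picked after their values were seen. Alternatives were pseudocounts of 0.1 and 10, no filter, quantile and total scaling, genes detected as a covariate, all 64 libraries, only libraries with a correlation with bulk of at least 0.25, single raft sets, medians, and each library left out. The SD of MT2A within each raft set was added after seeing the data.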

Additional observations from a re-analysis of the deposited data

Results flagged for a closer look

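In groups of 4 to 10 libraries the gap of an extreme library to its neighbour was compared with the range of the group, by Dixon's test, in 40 groups, which by chance marks about 1 in 20. MT2A, MT1X, MT1E and MT1L were each listed at 0 FPKM in saline proliferative replicate 5, while the other 7 rafts of that group had all 4 genes. That library had 735 genes detected and a correlation of 0.08 with bulk, and it was not part of the limma fit. MT1X was listed at 0 FPKM in 2-cell raft replicate 8, where the other 9 rafts of 2 cells stood between 8.90 and 116 FPKM and MT2A stood at 496. The cause was not tested in either library.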

How the results depend on the processing

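Counts of members called are given with their main value first. For proliferative minus nonproliferative rafts averaged over arms, 4 became 0 with genes detected as a covariate, 2 with all 64 libraries and 0 with only libraries at a correlation of 0.25 or more, and 3 to 4 with a library left out. For 5 nM minus saline, 3 became 1 with a pseudocount of 10, 1 with no filter, 0 with quantile normalization, 0 with the covariate and 1 with all 64 libraries, and 0 to 4 with a library left out. For saline minus untreated, 1 became 0 with a pseudocount of 10, no filter, quantile normalization or the covariate, 3 with all 64 libraries, and 0 to 2 with a library left out. With libraries at 0.25 or more, 0 became 1 for proliferation in the 5 nM arm, where all-row calls went from 0 to 53. For 5 nM minus saline in nonproliferative rafts 0 likewise became 1, where all-row calls went from 0 to 113. In proliferative rafts 5 nM minus saline gave 0 to 1 with a library left out.

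Counts of members with a higher mean moved likewise. For 1-cell rafts minus 1-cell C1 captures 0 became 1 with medians, 1 with set 2, and 0 to 1 with a library left out. For 2-cell minus 1-cell rafts 5 became 2 with set 2. For 2-cell rafts minus 2-cell C1 captures 1 became 3 with set 1 and 0 with set 2, and 0 to 1 with a library left out. For 1-cell rafts minus bulk 0 became 2 with quantile normalization, 1 with set 1, and 0 to 1 with a library left out. For 1-cell C1 captures minus bulk 4 became 2, and for 1-cell minus empty rafts 6 became 3, both with medians. For 2-cell minus 1-cell C1 captures it was 1 to 5 with a library left out.

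Signs turned with libraries at 0.25 or more for MT1F averaged over arms (−0.0818), MT1X in the saline (−0.0375) and 2 nM arms (−0.58) and MT1E in the 2 nM arm (−0.86). With a library left out, the proliferative difference of MT1E in the 5 nM arm ran from −0.26 to 1.38, that of MT1F in the 5 nM arm from −0.48 to 0.84 and in the untreated arm from 0 to 2.11. Among isolation groups, 12 of 56 member differences changed sign when a library was left out. The cause was not tested. Apart from left-out libraries, 662 values of single members kept their direction and their side of the threshold or moved by less than 1 SD, 29 lost a call, 3 gained one and 12 moved further.

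Over all rows, 1400 calls for proliferation became 906 (pseudocount 10), 771 (no filter), 733 (quantile), 173 (covariate), 641 (all 64 libraries) and 94 (0.25 or more, 72 higher and 22 lower). For 5 nM minus saline 536 became 607 at 0.25 or more (41 higher and 566 lower). The same 536 became 877 (pseudocount 0.1), 223, 237, 110, 9 (5 higher and 4 lower) and 340 in the order pseudocount 10, no filter, quantile, covariate and all 64. For saline minus untreated 44 became 887 (pseudocount 0.1), 0, 3, 1, 0 and 3021 in that order, and 564 at 0.25 or more.

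No paired analysis was possible because the labels number proliferative and nonproliferative rafts separately and give no pairing. Summing rows of 1 name was not run, as each member has 1 row. Unknown depth and unknown cell number per raft limit every difference here.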
